A study of Mus musculus with 8 samples.

Results

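Primordial germ cells, the precursors of eggs and sperm, are set aside from the mouse epiblast at about the time these embryos were collected. The genes described here are 10 genes known for that step or for the first life of the germ cell: Prdm1, Prdm14, Dppa3, Nanos3, Dnd1, Kit, Kitl, Ifitm1, Ifitm3 and Alpl. They were chosen by gene symbol, and all 10 were among the 21182 symbols of the expression table. RNA was sequenced from single whole C57BL/6 mouse embryos at E6.75, around the onset of gastrulation. Of these, 4 were labelled Tet1/2/3 TKO, a triple knockout of the TET genes, and 4 were labelled Control. The sample descriptions also mark the Control embryos WT, read here as wild type for the same genes. The labels used here give no allele or Cre driver, litter, sex or batch, and each embryo was taken whole, so the embryo proper and the extraembryonic tissues are read together.

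Germ cell fate is induced in a few proximal epiblast cells by BMP signals from the extraembryonic ectoderm, after Wnt signalling has made the epiblast responsive. The PR-domain proteins Prdm1 and Prdm14 then repress the somatic programme and restore a pluripotency programme, and the new germ cells later lose most of their DNA methylation. TET enzymes oxidise methylated cytosine, and their loss is known to affect gene activity in the germ line. A handful of germ cells in a whole embryo gives little RNA, and most of the 10 genes are also active in other tissues. In bulk RNA of this kind, fewer cells of a type and less RNA per cell cannot be told apart.

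The start regions of the genes are shown because TET enzymes act on methylated CpG sites, and the genes differ widely in how many CpG they hold there. Of the 10 genes, 7 had an entry in the RefSeq promoter table (build GRCm38.p6), a window of 250 bases before to 50 bases after the start. The dinucleotide CG, which reads the same on both strands, was counted in each window. Kitl held 28 CG, Alpl 26, Kit 20 and Prdm1 20, against 5 each in Ifitm1 and Ifitm3 and 3 in Nanos3. Of all 27025 promoters of the same length, 94.2% held at least 1 CG, the median was 7, and the quartiles were 3 and 21. As many or more were held by 16.8% of promoters for Alpl, 26.8% for Kit, 61.7% for Ifitm3 and 76.2% for Nanos3. The windows printed here, 2 from above the median and 2 from below it, are those of Kit (chr5:75574737-75575036, plus strand), Kitl (chr10:100015571-100015870, plus strand), Ifitm3 (chr7:141010695-141010994, minus strand) and Nanos3 (chr8:84176503-84176802, minus strand). They run 5′ to 3′ along the gene, with each CG in capitals. These letters are a description of the sequence, and no methylation was measured in these files.
Kit: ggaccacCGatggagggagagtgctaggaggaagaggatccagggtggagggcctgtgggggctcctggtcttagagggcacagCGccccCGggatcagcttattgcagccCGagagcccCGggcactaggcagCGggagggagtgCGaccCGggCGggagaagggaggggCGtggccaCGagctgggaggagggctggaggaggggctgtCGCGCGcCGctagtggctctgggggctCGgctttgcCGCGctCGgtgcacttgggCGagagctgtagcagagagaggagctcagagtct
Kitl: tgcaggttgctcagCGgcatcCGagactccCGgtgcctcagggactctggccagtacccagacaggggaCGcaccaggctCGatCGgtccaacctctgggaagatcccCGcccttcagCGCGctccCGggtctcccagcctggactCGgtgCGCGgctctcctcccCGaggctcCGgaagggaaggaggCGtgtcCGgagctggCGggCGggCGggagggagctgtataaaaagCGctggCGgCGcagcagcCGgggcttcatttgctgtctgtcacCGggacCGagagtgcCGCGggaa
Ifitm3: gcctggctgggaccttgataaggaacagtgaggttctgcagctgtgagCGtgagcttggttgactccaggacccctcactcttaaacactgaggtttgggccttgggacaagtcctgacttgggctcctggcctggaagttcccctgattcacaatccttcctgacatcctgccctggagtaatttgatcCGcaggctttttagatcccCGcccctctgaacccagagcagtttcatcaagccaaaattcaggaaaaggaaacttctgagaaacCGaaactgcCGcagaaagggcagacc
Nanos3: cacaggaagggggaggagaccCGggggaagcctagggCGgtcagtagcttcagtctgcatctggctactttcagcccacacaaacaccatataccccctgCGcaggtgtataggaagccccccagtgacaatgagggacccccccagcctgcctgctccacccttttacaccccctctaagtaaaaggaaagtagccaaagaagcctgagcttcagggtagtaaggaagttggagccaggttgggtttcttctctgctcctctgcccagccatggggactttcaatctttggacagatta

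The deposited values are RPKM, read counts that the authors divided by gene length and by the mapped total of the library, so levels of different genes can be set side by side. Depth, estimated from the smallest RPKM steps, was 13.73 ± 3.97 M reads in TKO-labelled embryos and 14.58 ± 1.67 M reads in Control embryos (SD, n = 4 each), and lowest, at 9.91 M reads, in TKO replicate 1. The targeted genes check the labels. Tet1 averaged 11.4 ± 2.82 RPKM in TKO-labelled and 5.24 ± 0.37 RPKM in Control embryos (SD, n = 4 each), which goes against a loss of its transcript, although 1 value per gene does not show whether targeted exons were missing. Tet2 averaged 0.784 ± 0.172 RPKM in TKO-labelled and 0.725 ± 0.189 RPKM in Control embryos, and Tet3 averaged 1.38 ± 0.25 RPKM in TKO-labelled and 1.85 ± 0.16 RPKM in Control embryos. The embryos are therefore called TKO-labelled, and each direction below rests on that label.

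Across the embryos the 10 genes spanned a wide range of levels. Ifitm3 stood highest, at a mean of 19.7 ± 4.90 RPKM over all 8 embryos (SD), followed by Ifitm1 at 7.39 ± 2.31 RPKM, and Ifitm3 was above Ifitm1 in 8 of 8 embryos. Next came Dnd1 (3.75 ± 0.54 RPKM), Dppa3 (3.07 ± 0.96 RPKM) and Alpl (2.83 ± 0.88 RPKM), neighbours whose ranges overlapped. Kitl (1.88 ± 0.44 RPKM), its receptor gene Kit (1.36 ± 1.01 RPKM) and Prdm1 (1.22 ± 0.50 RPKM) also overlapped from each to the next. Nanos3 (0.364 ± 0.136 RPKM) was below Prdm1 in 8 of 8 embryos, and Prdm14 (0.045 ± 0.037 RPKM) lay below every Nanos3 value. The mean of Ifitm3 was above that of 85.9% of the 21182 symbols, and the mean of Prdm14 above that of 21.4%.

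Between groups, 0 of the 10 genes passed the test. Of the 10 genes, 8 had at least 1 RPKM in at least 4 of the 8 embryos and entered the fit (limma on log2(RPKM + 1) over 10451 genes, Benjamini-Hochberg adjustment), while Nanos3 and Prdm14 did not. The fit called 1 gene in all, 0.00957% of those tested. At an unadjusted p under 0.05 stood Kit, with higher values in TKO-labelled embryos, and Dnd1, with lower ones, so 2 of 8, against 17.5% of all genes tested (13.9% higher and 3.6% lower). Kit was under that p in 7 of the 17 fits run with it and Dnd1 in 10 of 17. Of the 8 differences 5 were positive and 3 negative, with a median of 0.16 on the log2 scale, beside a median of 0.09 and 66.5% positive over all genes tested. Of all genes at that unadjusted p, 79.4% were higher in TKO-labelled embryos, but 52.0% after median-ratio scaling of the embryos.

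**Figure D1:**
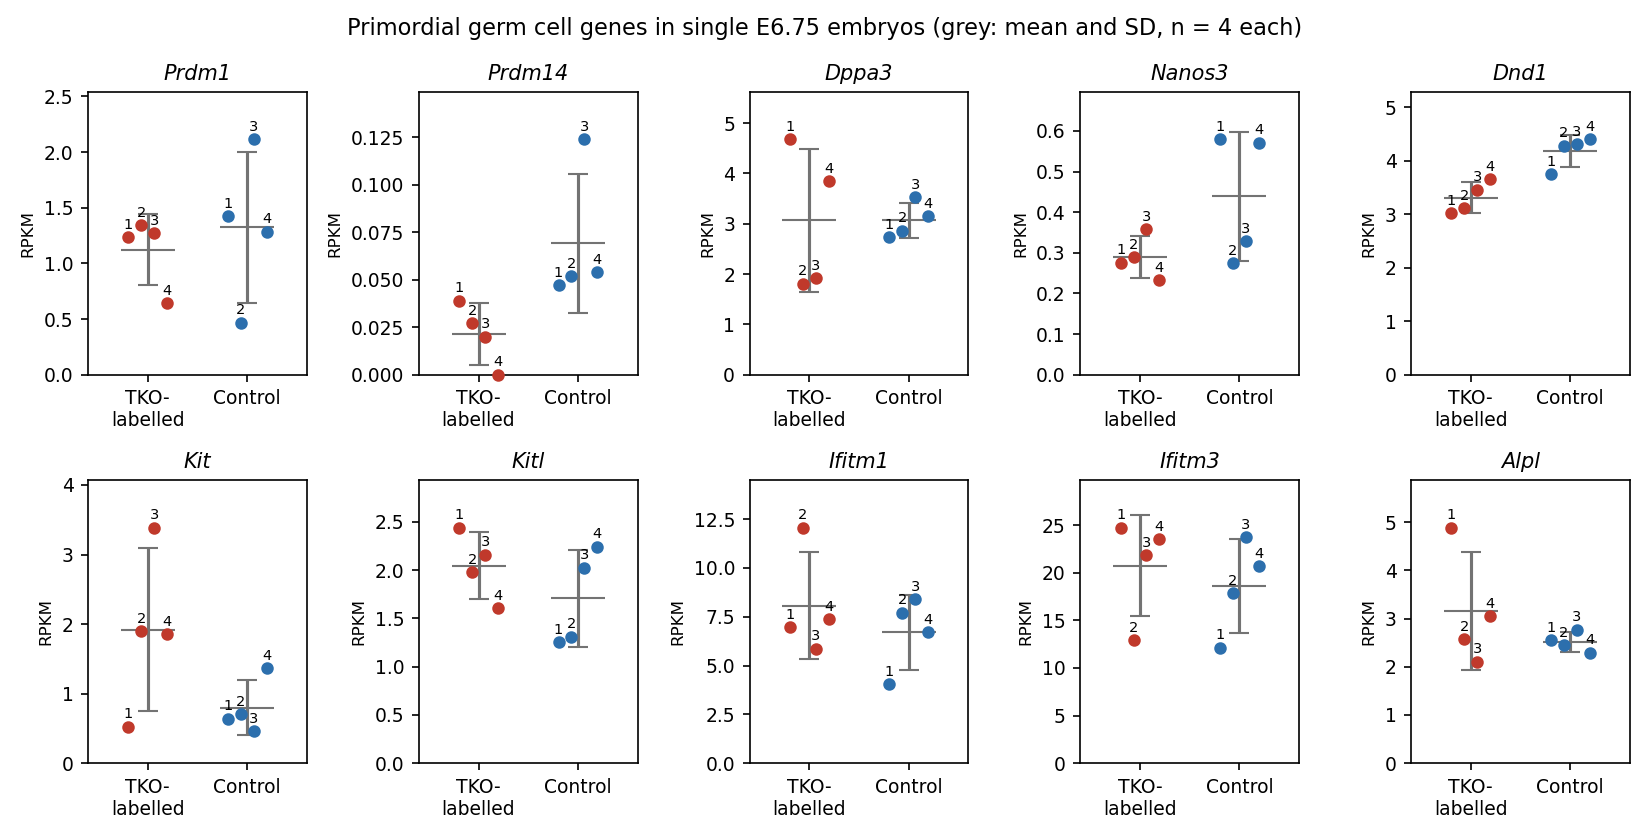
RPKM of the 10 germ cell genes in each embryo, TKO-labelled left and Control right. Points are embryos with their replicate number, and grey marks are the mean and SD (n = 4 each). Only in Dnd1 and Prdm14 does each TKO-labelled embryo lie below each Control embryo, which held for 1.86% of all genes tested. Prdm14 was not among the genes tested, and its values correspond to 0 to 4 reads an embryo. Kit is high in TKO replicates 2, 3 and 4.

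Dnd1 encodes an RNA-binding protein that germ cells need to survive, and its loss in mice leads to germ cell loss and testicular teratomas on some strain backgrounds. Dnd1 was at 3.02, 3.12, 3.46 and 3.65 RPKM in TKO-labelled replicates 1 to 4, against 3.75, 4.28, 4.31 and 4.402 RPKM in Control replicates 1 to 4. Each TKO-labelled embryo thus lay below each Control embryo, with means of 3.31 ± 0.29 RPKM in TKO-labelled and 4.18 ± 0.30 RPKM in Control embryos (SD, n = 4 each). Dnd1 was the 1 of the 8 tested genes whose groups lay apart, against 9.41% of all genes tested in either direction and 1.86% in this one, and the gap between the nearest embryos was small, 3.65 RPKM in TKO replicate 4 against 3.75 RPKM in Control replicate 1. Its log2 difference was -0.27 (95% interval -0.51 to -0.02, SE 0.11), with a limma p of 0.0350 before and 0.253 after adjustment over all genes. The exact two-sided permutation p was 0.0286, the smallest that 4 against 4 embryos allow.

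Dnd1 overlaps Wdr55 on the opposite strand in the annotation, and amplified cDNA libraries of this kind do not keep strand, so reads from the shared stretch cannot be assigned to either gene. Wdr55, a WD-repeat gene, was the more abundant of the pair. It averaged 35.1 ± 7.83 RPKM in TKO-labelled and 33.5 ± 3.599 RPKM in Control embryos (SD, n = 4 each), a log2 difference of 0.05 (limma adjusted p = 0.902). Its 2 highest embryos were TKO replicates 1 and 4, at 41.8 and 41.9 RPKM, and those of Dnd1 were Control embryos. The part of shared reads in the Dnd1 level was not tested.

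Prdm14, which encodes the PR-domain regulator most restricted to pluripotent cells and the early germ line, was close to the limit of detection. Prdm14 was at 0.039, 0.027, 0.020 and 0 RPKM in TKO-labelled replicates 1 to 4, against 0.047, 0.052, 0.124 and 0.054 RPKM in Control replicates 1 to 4. Each TKO-labelled value was below each Control value, with an exact permutation p of 0.0286, the smallest possible. The groups lay apart in this direction in 1.86% of the genes tested, which did not include Prdm14. With a transcript of 2564 bases and the estimated depths, these values correspond to 1, 1, 1 and 0 reads in TKO-labelled and 2, 2, 4 and 2 reads in Control embryos. The totals of 3 and 10 reads give a ratio of 0.319 per read sequenced, TKO-labelled over Control, with a 95% interval of 0.0563 to 1.24 (exact binomial, counting error only). That interval includes equal levels. The 0 of TKO replicate 4 allows up to 3 reads, or 0.0996 RPKM, which lies above 3 of the 4 Control values.

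Nanos3, an RNA-binding translational repressor that keeps migrating germ cells alive, was likewise carried by few reads. Nanos3 was at 0.276, 0.289, 0.359 and 0.233 RPKM in TKO-labelled replicates 1 to 4, against 0.580, 0.275, 0.329 and 0.571 RPKM in Control replicates 1 to 4. Control replicates 1 and 4 stood above the other 6 embryos, and the groups overlapped (exact permutation p = 0.200). In reads, 12 stood in TKO-labelled and 19 in Control embryos, a ratio of 0.671 with a 95% interval of 0.297 to 1.46 (exact binomial, counting error only). The annotated span of Nanos3 also holds the microRNA loci Mir181c and Mir181d.

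Kit encodes the receptor tyrosine kinase that germ cells use for survival and migration, and it is also active in blood progenitors, mast cells and other tissues. Kit was at 0.525, 1.90, 3.39 and 1.86 RPKM in TKO-labelled replicates 1 to 4, against 0.642, 0.709, 0.464 and 1.37 RPKM in Control replicates 1 to 4. TKO replicates 2, 3 and 4 lay above each Control embryo, while TKO replicate 1 lay inside the Control range. The means were 1.92 ± 1.17 RPKM in TKO-labelled and 0.796 ± 0.396 RPKM in Control embryos (SD, n = 4 each), a log2 difference of 0.63 (95% interval 0.00 to 1.25, SE 0.28). The limma p was 0.0497 before and 0.286 after adjustment over all genes, and the exact permutation p was 0.114. Kit entered the fit through 3 TKO-labelled embryos and 1 Control embryo at or above 1 RPKM, the fewest the filter allows, so its entry leaned on the group in which it was higher.

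Among the marker lists, the parietal endoderm list moved with Kit in the embryos highest in Kit. Parietal endoderm lays down the basement membrane beneath the trophoblast. The 12 markers, among them the matrix genes Sparc and Nid1, summed to 260, 631, 870 and 579 RPKM in TKO-labelled replicates 1 to 4, against 253, 147, 202 and 293 RPKM in Control replicates 1 to 4. Of the 12, 12 had the higher mean in TKO-labelled embryos and 0 were at 0 in any embryo. Of the 11 tested, 10 had an unadjusted limma p under 0.05, all 10 higher in TKO-labelled embryos. Over all genes tested the share was 13.9% in that direction and 17.5% in either. With all 8 embryos, 0 of the markers passed the threshold. Leaving out TKO replicate 1, which had the lowest sum of the TKO-labelled embryos, was the only alternative in which any did. Without TKO replicate 1, 7 of the markers passed the threshold, Col4a1, Col4a2, Lama1, Lamb1, Lamc1, Nid1 and Sparc (limma adjusted p = 0.0170 to 0.0403). That fit called 40 of all 10451 genes tested, 33 higher and 7 lower, against 1 with all 8 embryos. The 4 embryos with the highest Kit, in order TKO replicates 3, 2 and 4 and Control replicate 4, had the 4 highest sums in the same order. Among the remaining embryos the order differed. Control replicate 2 had the lowest sum, 147 RPKM, with Kit at 0.709 RPKM, and TKO replicate 1 had a sum of 260 RPKM with Kit at 0.525 RPKM. The part of parietal endoderm in the Kit level was not tested. Without TKO replicate 1 the log2 difference of Kit was 0.91 (limma adjusted p = 0.111), and without TKO replicate 3 it was 0.40 (limma adjusted p = 0.451).

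Kitl encodes the ligand of Kit, made by the cells around germ cells. Kitl was at 2.44, 1.98, 2.16 and 1.61 RPKM in TKO-labelled replicates 1 to 4, against 1.25, 1.31, 2.03 and 2.24 RPKM in Control replicates 1 to 4. The groups overlapped, and Control replicates 1 and 2 were the lowest of the 8 embryos. The log2 difference was 0.18 (95% interval -0.17 to 0.53, limma adjusted p = 0.576). It moved to 0.098 when Control replicate 1 was left out and to 0.27 when Control replicate 4 was (limma adjusted p = 0.780 and 0.472). TKO replicate 1 held the highest Kitl and, after Control replicate 3, the lowest Kit, while TKO replicate 3 and Control replicate 4 were among the 4 highest embryos for both genes.

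**Figure D2:**
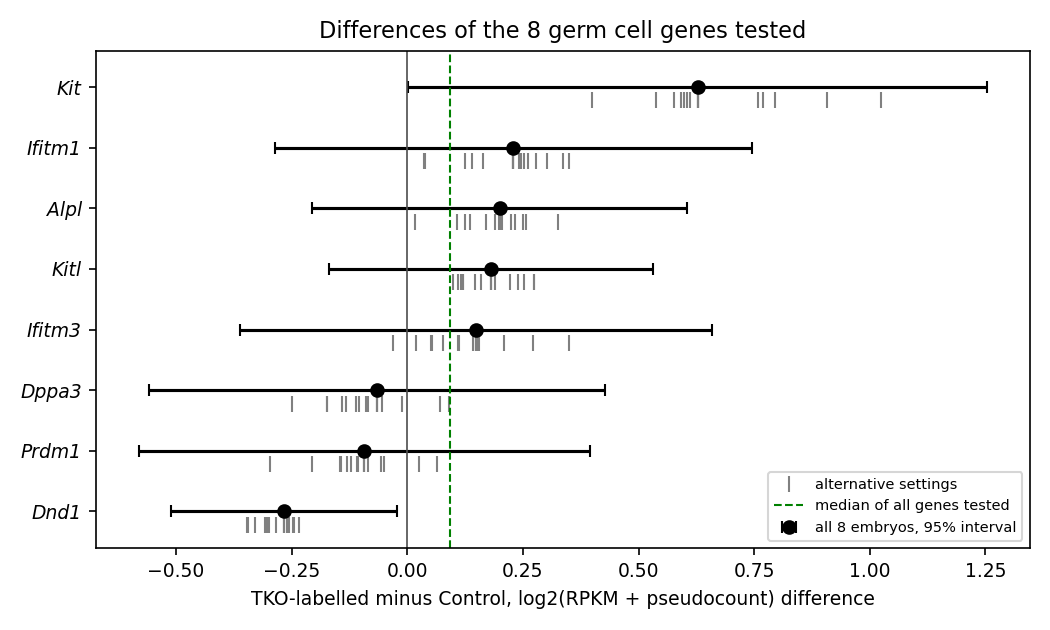
Log2 differences, TKO-labelled minus Control, of the 8 germ cell genes that entered the fit. Black points and bars are the estimate from all 8 embryos with its 95% interval, grey ticks are the alternative settings and the dashed line is the median of all genes tested, 0.09. Dnd1 lies below 0 and Kit above 0 in each setting run, and the other intervals include 0.

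Prdm1 encodes Blimp1, the transcriptional repressor that founds the germ cell lineage, which is also made in visceral endoderm, in trophoblast and in maternal tissue. Prdm1 was at 1.23, 1.34, 1.27 and 0.645 RPKM in TKO-labelled replicates 1 to 4, against 1.42, 0.468, 2.12 and 1.28 RPKM in Control replicates 1 to 4. The TKO-labelled values lay inside the Control range, and TKO replicate 4 stood apart from the other 3. The log2 difference was -0.09 (95% interval -0.58 to 0.39, limma adjusted p = 0.855), and without TKO replicate 4 it was 0.02 and without Control replicate 3 it was 0.065 (limma adjusted p = 0.976 and 0.914).

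The Control embryos with the lowest and highest Prdm1, replicates 2 and 3, also had the lowest and highest sum of decidua markers. The decidua is the maternal tissue around the embryo, and its 12 markers, among them the decidual prolactin Prl8a2, summed to 53.9, 40.7, 454 and 110 RPKM in TKO-labelled replicates 1 to 4, against 258, 8.38, 548 and 346 RPKM in Control replicates 1 to 4. A large part of the highest sums was Prl8a2, at 354 RPKM in TKO replicate 3 and 336 RPKM in Control replicate 3. In Control replicate 2, with the lowest sum, Prl8a2 was at 1.32 RPKM. Of the 12 markers, 1 had the higher mean in TKO-labelled embryos and 4 were at 0 in some embryo. In TKO-labelled embryos the order differed, since replicate 4, lowest in Prdm1, had the second highest sum. The 7 other markers of the anterior visceral endoderm, where Prdm1 is also active, summed to 75.2 to 125 RPKM in TKO-labelled and 57.8 to 84.8 RPKM in Control embryos. A large part of these sums was Otx2, which is also an epiblast marker. Otx2 was at 33.2 to 63.1 RPKM in TKO-labelled and 23.5 to 41.2 RPKM in Control embryos. The part of decidua or anterior visceral endoderm in the Prdm1 level was not tested.

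Dppa3 encodes Stella, a marker of committed germ cells that in the zygote protects the maternal genome from demethylation. Dppa3 was at 4.68, 1.81, 1.92 and 3.85 RPKM in TKO-labelled replicates 1 to 4, against 2.74, 2.86, 3.52 and 3.15 RPKM in Control replicates 1 to 4. The means were nearly equal, 3.06 ± 1.43 RPKM in TKO-labelled and 3.07 ± 0.35 RPKM in Control embryos (SD, n = 4 each). The TKO-labelled embryos, however, lay on either side of the whole Control range, with replicates 1 and 4 above it and replicates 2 and 3 below it. The log2 difference was -0.07 (95% interval -0.56 to 0.43, limma adjusted p = 0.901), and it turned to 0.09 without TKO replicate 2 and to 0.07 without TKO replicate 3 (limma adjusted p = 0.857 and 0.900).

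The same pair of TKO-labelled embryos had the highest sums of the epiblast list, though not the highest levels of each marker. Its 10 markers, among them Utf1 and the Oct4 gene Pou5f1, summed to 1046, 697, 556 and 786 RPKM in TKO-labelled replicates 1 to 4, against 495, 724, 562 and 676 RPKM in Control replicates 1 to 4. Utf1, a chromatin factor of pluripotent cells, was at 238, 49.3, 66.5 and 155 RPKM in TKO-labelled replicates 1 to 4, against 58.0 to 74.3 RPKM in Control embryos. Among the TKO-labelled embryos, Pou5f1, Dnmt3b, Pou3f1, Otx2 and Slc7a3 were also highest in replicates 1 and 4. Nanog and Sox2 went the other way. In TKO-labelled replicates 1 to 4, Nanog was at 9.07, 13.6, 11.8 and 6.40 RPKM and Sox2 at 9.72, 17.2, 14.2 and 11.6 RPKM. Fgf5 and Tdgf1 were highest in TKO replicate 2. Of the 10 markers, 8 had the higher mean in TKO-labelled embryos and 0 were at 0 in any embryo. Among the Control embryos, the highest Dppa3, in replicate 3, went with the second lowest sum. The part of the epiblast in the Dppa3 level was not tested.

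**Figure D3:**
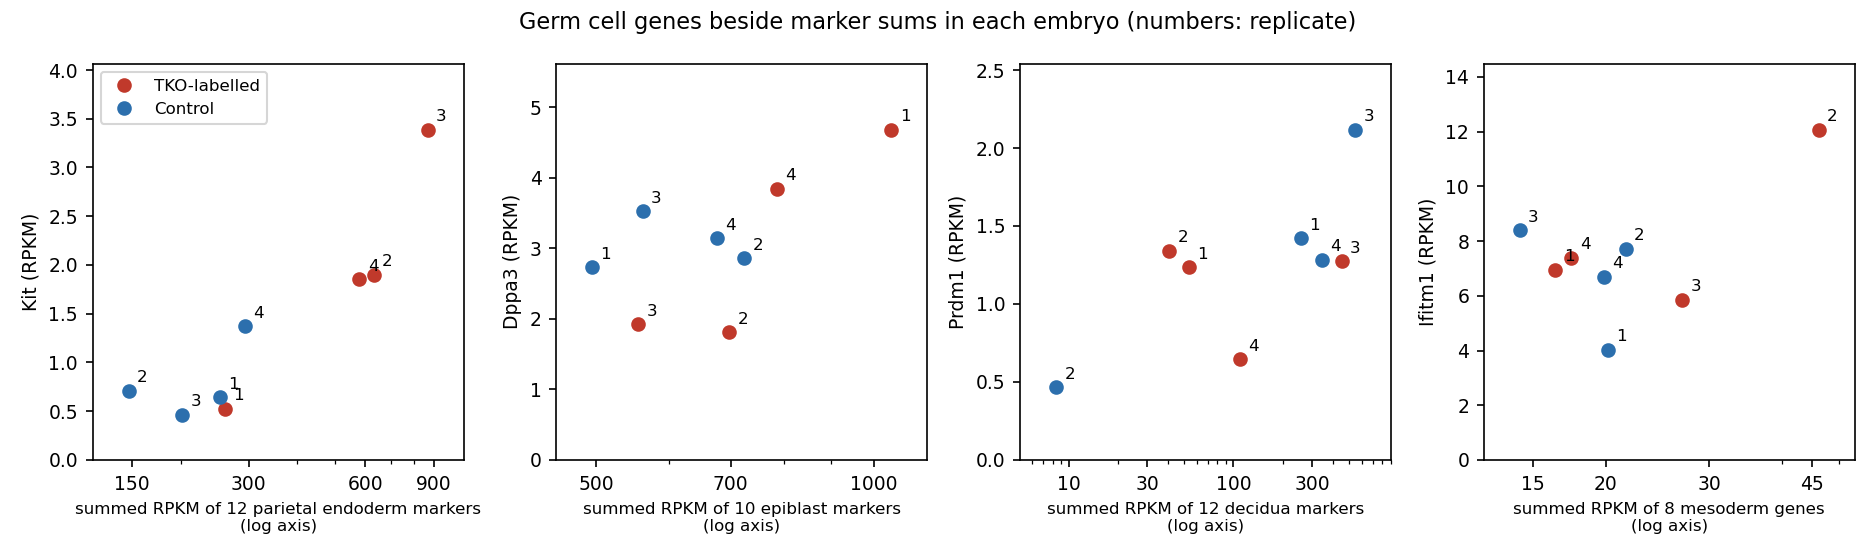
Each panel sets the RPKM of 1 germ cell gene in an embryo (vertical axis) against the summed RPKM of a marker list in the same embryo (horizontal axis, logarithmic), with TKO-labelled embryos in red, Control embryos in blue and replicate numbers beside the points. Kit is high in the 3 TKO-labelled embryos with parietal endoderm sums of 579 to 870 RPKM. Dppa3 is highest where the epiblast sum is highest, at 1046 RPKM. Prdm1 is lowest and highest at the ends of the decidua range. Ifitm1 is highest in the embryo with the highest mesoderm sum, 46.2 RPKM. Control replicate 3, second highest in Ifitm1, has the lowest mesoderm sum.

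Alpl encodes tissue-nonspecific alkaline phosphatase, the enzyme whose stain has long marked germ cells, and which other tissues also make. Alpl was at 4.89, 2.57, 2.10 and 3.04 RPKM in TKO-labelled replicates 1 to 4, against 2.55, 2.44, 2.77 and 2.29 RPKM in Control replicates 1 to 4. TKO replicate 1 stood above the other 7 embryos, as it did in Dppa3, Kitl and Ifitm3, and the groups overlapped. The log2 difference was 0.20 (95% interval -0.21 to 0.60, limma adjusted p = 0.595), and it was 0.02 without that embryo (limma adjusted p = 0.957).

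The Ifitm genes encode small interferon-induced membrane proteins. Ifitm3, also called fragilis, marks the epiblast cells competent for germ cell fate, and Ifitm1 is active in early mesoderm as well as in germ cells. Ifitm3 was at 24.7, 12.9, 21.8 and 23.5 RPKM in TKO-labelled replicates 1 to 4, against 12.1, 17.8, 23.7 and 20.7 RPKM in Control replicates 1 to 4. TKO replicate 2 and Control replicate 1 were the 2 low embryos, and the log2 difference was 0.15 (95% interval -0.36 to 0.66, limma adjusted p = 0.766), or -0.03 without Control replicate 1 (limma adjusted p = 0.953). Ifitm1 was at 6.96, 12.1, 5.86 and 7.39 RPKM in TKO-labelled replicates 1 to 4, against 4.03, 7.72, 8.39 and 6.70 RPKM in Control replicates 1 to 4. TKO replicate 2, low in Ifitm3, was the highest in Ifitm1, and the log2 difference of Ifitm1 was 0.23 (95% interval -0.29 to 0.75, limma adjusted p = 0.635). It was 0.04 without TKO replicate 2 and 0.04 without Control replicate 1 (limma adjusted p = 0.937 and 0.943).

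TKO replicate 2 also held the highest levels of several mesoderm genes. Mesp1, a regulator of the first mesoderm, was at 13.9 RPKM in that embryo and at 0 to 0.892 RPKM in the other 7. The 8 genes of the mesoderm list, which germ cells keep low, summed to 16.4, 46.2, 27.0 and 17.5 RPKM in TKO-labelled replicates 1 to 4, against 14.3 to 21.6 RPKM in Control embryos. Control replicate 3, second highest in Ifitm1 at 8.39 RPKM, had the lowest sum. TKO replicate 3, second highest in the sum, had the lowest Ifitm1 of the TKO-labelled embryos, 5.86 RPKM. The part of mesoderm in the Ifitm1 level was not tested. The close relative Ifitm2 was more abundant than either, at 103 ± 17.2 RPKM in TKO-labelled and 72.7 ± 15.9 RPKM in Control embryos (SD, n = 4 each), a log2 difference of 0.51 (limma adjusted p = 0.212). The Ifitm genes are related in sequence, so the split of reads among them is uncertain.

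The genes that act before and beside the 10 were described by 6 further lists, with 65 genes listed and 49 tested. Of these 0 passed the threshold, 4 (Pou5f1, Elavl1, Ddx4 and Ifitm2) had higher and 1 (Klf2) had lower values in TKO-labelled embryos at an unadjusted p under 0.05, so 5 of 49, against 17.5% of all genes tested (13.9% higher and 3.6% lower). In 1, Elavl1, the groups lay apart, with TKO-labelled embryos higher (7.55% of all genes tested). Elavl1, an RNA-binding protein gene, was at 25.5 to 36.3 RPKM in TKO-labelled and 22.1 to 25.5 RPKM in Control embryos, so that the nearest embryos of the groups were almost equal. Among the upstream signals, BMP and Wnt ligands, receptors and SMAD genes, 8 of 14 tested differences were positive, with a median of 0.03. The BMP receptor gene Acvr1 averaged 2.45 ± 0.27 RPKM in TKO-labelled and 1.83 ± 0.44 RPKM in Control embryos (log2 difference 0.29, limma adjusted p = 0.301). T, or Brachyury, which Wnt signals induce ahead of Prdm1 and Prdm14, was at 2.86, 34.0, 9.29 and 5.41 RPKM in TKO-labelled replicates 1 to 4, against 4.55, 7.06, 2.94 and 2.24 RPKM in Control replicates 1 to 4. TKO replicate 2 thus stood far above the other embryos, and the log2 difference of T was 0.99 (limma adjusted p = 0.386).

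In the list of germ cell co-regulators, which also holds pluripotency and epiblast genes such as Otx2, 9 of 14 tested differences were positive. Their median was 0.16. Pou5f1 averaged 32.8 ± 18.0 RPKM in TKO-labelled and 15.3 ± 3.96 RPKM in Control embryos (log2 difference 0.93, limma adjusted p = 0.215). Klf2, a naive pluripotency factor, averaged 1.25 ± 0.70 RPKM in TKO-labelled and 2.47 ± 0.42 RPKM in Control embryos (log2 difference -0.66, limma adjusted p = 0.179). Of 8 genes of migration and survival, 5 had positive differences. Those with the smallest limma p were the death gene Bax (0.28) and the survival gene Bcl2l1 (-0.26), with limma adjusted p-values of 0.332 and 0.323. The largest difference was that of Cdh1, at -0.31. Of the mesoderm genes 5 were tested and 3 had positive differences, led by Snai1 (0.70, limma adjusted p = 0.361) and Evx1 (0.30, limma adjusted p = 0.475).

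Later germ cell genes, which come on when germ cells reach the gonad, had 7 of 13 members past the filter, all 7 with positive differences (median 0.22), beside 66.5% positive and a median of 0.09 over all genes tested, and 0 past the threshold. Asz1 and Rpl10l, at 0.01 and 0.02, lay below that median. Of the members that did not enter the fit, Dazl, Mael, Piwil2 and Tdrd1 had higher means in TKO-labelled embryos. Dazl averaged 1.33 RPKM in TKO-labelled and 0.618 RPKM in Control embryos. Piwil4 (0.037 against 0.049 RPKM) and Tex101 (0.320 against 0.326 RPKM) had slightly lower means in TKO-labelled embryos. The groups overlapped in each of these genes. Ddx4, the mouse vasa gene, averaged 12.1 ± 3.30 RPKM in TKO-labelled and 6.98 ± 2.27 RPKM in Control embryos (SD, n = 4 each). TKO replicate 2, at 8.33 RPKM, was below the highest Control embryo, at 10.1 RPKM, and the log2 difference was 0.72 (limma adjusted p = 0.182). Sycp1, of the meiotic synaptonemal complex, averaged 1.43 ± 0.66 RPKM in TKO-labelled and 0.882 ± 0.215 RPKM in Control embryos (log2 difference 0.34, limma adjusted p = 0.375).

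**Figure D4:**
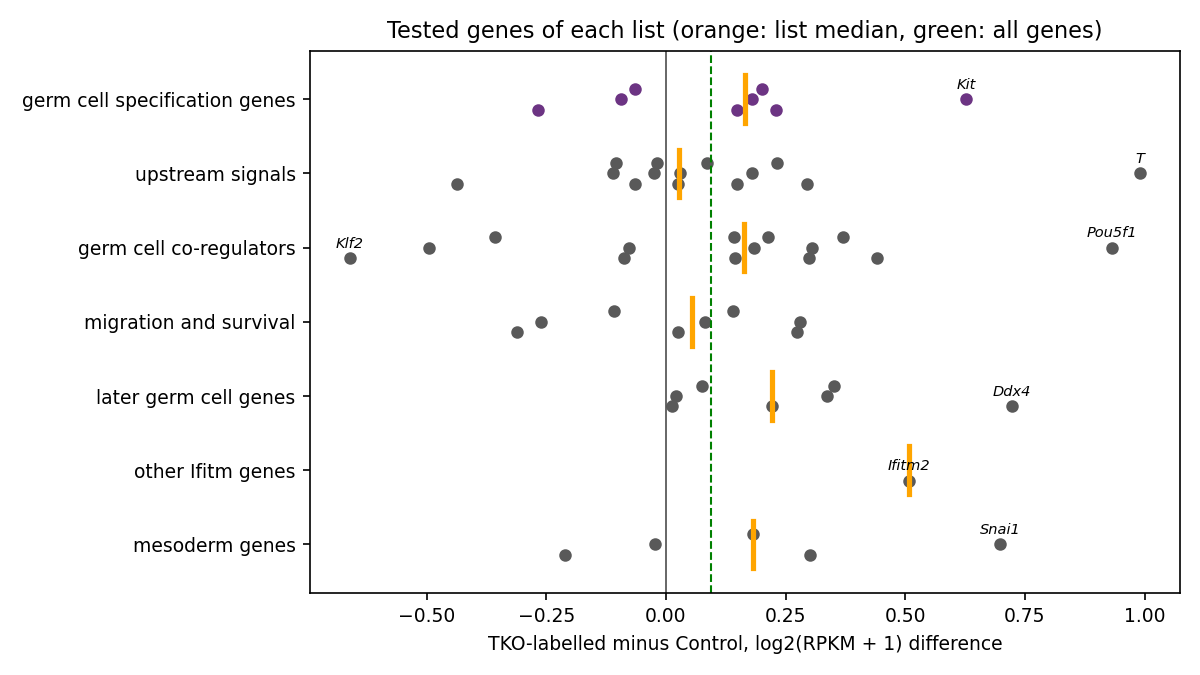
Log2 differences, TKO-labelled minus Control, of the tested genes of each list, with 1 point per gene, the list median in orange and the median of all genes tested, 0.09, as a dashed line. The list medians run from 0.03 to 0.22, apart from the other Ifitm genes, where Ifitm2 was the 1 gene tested.

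For the 2 genes with the smallest p, the genes of most similar pattern were found among 6521 tested genes with a mean of at least 5 RPKM, as the smallest root mean square difference of centred log2(RPKM + 1) values over the 8 embryos. Closest to Kit were Plod3, a collagen-modifying enzyme (0.12), Cited2, a transcriptional co-regulator (0.18), and Klhl13, an adaptor of a ubiquitin ligase (0.23). Plod3 was at 4.70, 8.14, 12.6 and 8.77 RPKM in TKO-labelled replicates 1 to 4, against 4.78, 4.87, 3.30 and 5.92 RPKM in Control replicates 1 to 4, and so shared with Kit the low value in TKO replicate 1 and the high one in TKO replicate 3. Closest to Dnd1 were D4Wsu53e (0.08), H2-Ke6 (0.09) and H2afy, which encodes the histone variant macroH2A1 (0.09). H2afy averaged 25.2 ± 1.78 RPKM in TKO-labelled and 30.3 ± 2.11 RPKM in Control embryos (SD, n = 4 each). The groups did not overlap in H2afy and D4Wsu53e but did in H2-Ke6. The genes of both sets were picked for their likeness to Kit or to Dnd1 over these same embryos, so their shared values are a description.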

How the data were processed

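Single E6.75 mouse embryos (4 TKO-labelled, 4 Control) were grouped by their labels. Per the labels' protocols, lysed embryos were amplified with a SMARTer ultra-low RNA kit and made into Nextera XT libraries, a route that does not mark strand. The authors deposited 1 RPKM value per symbol and embryo. Per the submitters' processing notes, HTSeq (no version) and mm9 were used. The aligner, the gene lengths and the handling of strand are not given in these sources. The labels do not name litters, so the p-values measure embryo-to-embryo spread alone.

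The log2(RPKM + 1) values of 10451 genes with at least 1 RPKM in at least 4 embryos entered limma (version 3.58.1, under R 4.3.3) with the eBayes variance trend and no block; two-sided p-values were adjusted by Benjamini-Hochberg and held against 0.05. Alternatives were the pseudocount, the filter, scaling, weights, a replicate block and each embryo left out. This scale understates changes of low genes. Single values were compared by exact permutation over 70 assignments. The fit was tested on simulated data. RPKM values are not counts, so no count test was run. Read totals were estimated from genes with 1 transcript in GENCODE M21, by finding the total that turns the greatest number of low RPKM values into 1, 2 or 3 reads (tolerance 2%). Of the low values, 46.3% to 54.8% then equalled 1 to 10 whole reads, too few to rebuild counts. Lengths come from another build than the authors'.

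The 10 genes and the lists were chosen with earlier results of these data known. Each further list contributes its called genes, or else its 2 genes of smallest p. Mesp1, Utf1, Elavl1, Prl8a2 and Wdr55 were named after their values were seen. Of the 12 listed blood and leukocyte markers 10 were in the table. They summed to 0.58 to 23.9 RPKM in TKO-labelled and 1.13 to 38.7 RPKM in Control embryos. The sums were 171 to 192 and 173 to 241 RPKM for extraembryonic ectoderm, 17.7 to 221 and 24.7 to 58.4 RPKM for ectoplacental cone and giant cells, and 2292 to 4107 and 2282 to 4965 RPKM for visceral endoderm, TKO-labelled before Control.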

Additional observations from a re-analysis of the deposited data

Results flagged for a closer look

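Within each group of 4 embryos, the gap between the highest or lowest embryo and the next was set against the whole range of the group. Over the 20 groups this gave 2 embryos past Dixon's 95% value of 0.829, and chance flags about 1 in 20 groups. Prdm1 in TKO replicate 4, at 0.645 RPKM, was far below the other 3 TKO-labelled embryos (gap over range 0.846). Prdm14 in Control replicate 3, at 0.124 RPKM, was far above the other 3 Control embryos (gap over range 0.909), and that value corresponds to 4 reads.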

How the results depend on the processing

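Under each of the 17 alternatives run, 0 of the germ cell genes and 0 of the genes in the 6 further lists passed the threshold. Of 130 values of the 8 tested genes under alternatives, 125 kept their direction and 5 reversed. The changes of filter, the fit without variance trend and the replicate block leave the difference itself unchanged. Their values are among the 125 and could not reverse. Leaving out 1 embryo gave Prdm1 0.02 (without TKO replicate 4) and 0.065 (without Control replicate 3), Dppa3 0.090 (without TKO replicate 2) and 0.07 (without TKO replicate 3), and Ifitm3 -0.0315 (without Control replicate 1). Over all embryos left out in turn, Prdm1 ran from -0.30 to 0.065, Dppa3 from -0.25 to 0.090 and Ifitm3 from -0.0315 to 0.35. The unadjusted limma p was no longer under 0.05 for Kit with median-ratio scaling and without TKO replicate 3, among others, nor for Dnd1 with the replicate block and without Control replicate 4, among others. Kitl ran from 0.098 to 0.27 and Ifitm1 from 0.037 to 0.35 with 1 embryo left out, and Alpl from 0.018 to 0.33. Kit ranged from 0.40 to 1.03 over all settings, the highest with a pseudocount of 0.1, with limma adjusted p-values of 0.111 to 0.520. Dnd1 ranged from -0.35 to -0.23, with limma adjusted p-values of 0.221 to 0.436. With no filter on low values Prdm14 had a log2 difference of -0.07 (limma adjusted p = 0.502) and Nanos3 one of -0.15 (limma adjusted p = 0.539). With at least 5 RPKM in at least 4 embryos, Ifitm1 and Ifitm3 were the genes of the 10 still tested.

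The count of genes called over the whole table was 1, and it was 0 with no filter and with the replicate block, and 2 with the stricter filter, quantile normalization and array weights. Leaving out 1 embryo gave 0 to 40, with 40 without TKO replicate 1. Median-ratio scaling moved the median of all genes to 0.01. The replicate numbers are not known to pair embryos: same-numbered deviations correlated at -0.005, 0.402, 0.265 and -0.021, and TKO replicates 1 and 4 were closer to another number. With the replicate block the limma adjusted p was 0.244 for Kit and 0.288 for Dnd1. Depth limits Prdm14 and Nanos3 most, with 0 to 4 and 2 to 7 reads an embryo.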
